A study of Homo sapiens with 14 samples.

Results

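In the count table, 15 of 61533 genes were read in n-Myc control cells and almost absent from n-Myc SPARK-ON cells when both had received DMSO. They were chosen from the measured values: at least 100 reads summed over the 3 control DMSO libraries and at most 5 summed over the 3 SPARK-ON DMSO libraries. Of all genes, 11929 reached the first limit and could have been members. The mirrored rule, read in SPARK-ON and not in control cells, chose 79 genes. The 15 were C5orf46, PCK1, ZPLD1, DSG2, SLC7A2, DLGAP1, DOK5, SLC15A1, LINC00639, LINGO2, PCDHB14, PCDHB12, CYB5R2, SCRG1 and NTM. Because DMSO libraries chose them, their difference between the lines in DMSO is a description and carries no test.

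The libraries were made from polyA RNA of SH-EP, an established human neuroblastoma line. The SPARK-ON cells are a single clone that expresses n-Myc SPARK-ON below the threshold for phase separation, in which lenalidomide was used to bring n-Myc into condensates at unchanged protein concentration, according to the study's own description. The control cells carry n-Myc without SPARK-ON and serve to show what lenalidomide itself does. There were 3 SPARK-ON DMSO, 3 SPARK-ON lenalidomide, 3 control DMSO and 2 control lenalidomide libraries; dose and duration were not given in the labels. With 1 line of each kind, the SPARK-ON construct and a difference between clones cannot be told apart in any comparison of the lines. In bulk RNA, fewer cells with a transcript and less transcript per cell cannot be told apart either.

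n-Myc is a MYC family transcription factor that binds DNA at E-boxes together with MAX and is amplified in many aggressive neuroblastomas. Neuroblastoma lines are commonly described as adrenergic, with the transcription factors HAND2 and GATA3, or as mesenchymal, with vimentin and fibronectin, and SH-EP is a standard example of the second kind. The products of the 15 genes fall into secreted and surface proteins, adhesion molecules of neurons and epithelia, membrane transporters, metabolic enzymes and signalling scaffolds.

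The 11 libraries held between 6614671 and 21511684 counts, and the smallest was SPARK-ON lenalidomide replicate 3. Levels are CPM, counts per 1000000 counts of the TMM-scaled library, and a count of 0 allows up to 3 reads, which is 0.143 to 0.441 CPM in these libraries. Control DMSO replicate 1 stood apart from the other control DMSO libraries, with a chi-square per degree of freedom of 26.6 and 22.6 against them, where the other two differed by 4.61. The control lenalidomide libraries differed from each other by 13.4, and SPARK-ON libraries of the same group by 2.36 to 3.21. The 6 mesenchymal markers summed to 1582 to 1826 CPM in control libraries and to 819 to 949 CPM in SPARK-ON libraries, a separation in the direction of the 15 genes whose part in their values was not tested. Under lenalidomide VIM (log2 -1.27) and FOSL2 (log2 -1.33) were lower in SPARK-ON cells by edgeR's quasi-likelihood test, FN1 was higher (log2 0.83), and PRRX1, SNAI2 and YAP1 did not pass it. The immune list summed to at most 2.71 CPM and the endothelial list to at most 6.72 CPM in any library.

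Among the secreted and surface proteins, C5orf46 (ENSG00000178776.5), which encodes a small secreted peptide, lies on the minus strand of chromosome 5 at 147880726 to 147906538 (GRCh38, GENCODE 29). Its level was 26.9, 19.3 and 23.5 CPM in the control DMSO libraries and 29.5 and 30.3 CPM in the control lenalidomide libraries. In the 6 SPARK-ON libraries it had 1 read in all, in lenalidomide replicate 1. Per kilobase of exon it was the most abundant of the 15, at 21.0 ± 3.68 CPM per kb (SD, n = 5 control libraries), since its exons span only 1232 bases.

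ZPLD1 (ENSG00000170044.9) encodes a membrane protein with a zona pellucida domain, the polymerising module of extracellular filaments, and is known from the inner ear. The gene spans 102099244 to 102479841 on the plus strand of chromosome 3. It was at 14.8, 17.8 and 13.2 CPM in control DMSO and at 17.3 and 16.4 CPM in control lenalidomide. SPARK-ON cells had 0, 0 and 3 reads in DMSO and 10, 3 and 0 reads with lenalidomide. All 5 control libraries were therefore far above all 6 SPARK-ON libraries, the highest of which was at 0.606 CPM. SCRG1 (ENSG00000164106.8), a small secreted protein first described in prion-infected brain, maps to the minus strand of chromosome 4 at 173384701 to 173406380. It was one of the weakest members, at 1.76 ± 0.977 CPM (SD, n = 3) in control DMSO, and the least even, with 1 library holding 58.3% of its control DMSO reads.

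DSG2 (ENSG00000046604.14) encodes desmoglein 2, a calcium-dependent cadherin of desmosomes, the junctions that anchor intermediate filaments between epithelial and heart muscle cells. It occupies 31498043 to 31549008 on the plus strand of chromosome 18. The control DMSO libraries had 266, 274 and 426 reads and the control lenalidomide libraries 322 and 308. No SPARK-ON library had a single DSG2 read, and it was the only member of the 15 with 0 reads in all 6. PCDHB12 (ENSG00000120328.6) and PCDHB14 (ENSG00000120327.7) are clustered protocadherins of the beta type, surface proteins whose combinations give neurons an identity. Both lie in one array on the plus strand of chromosome 5, at 141208697 to 141212571 and 141222932 to 141227759. PCDHB12 had 40, 55 and 68 reads in control DMSO and 30 and 47 in control lenalidomide, against at most 2 in any SPARK-ON library. For PCDHB14 the control libraries held between 44 and 58 reads and the SPARK-ON libraries between 0 and 5.

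Both remaining adhesion genes belong to the immunoglobulin superfamily. NTM (ENSG00000182667.15), neurotrimin, is a GPI-anchored IgLON protein of neurons, and its gene covers 131370478 to 132336822 on the plus strand of chromosome 11. It sat just above the limit of the rule, with 30, 33 and 39 reads in control DMSO, and per kilobase it was the weakest member at 0.246 ± 0.0354 CPM per kb (SD, n = 5). LINGO2 (ENSG00000174482.10), a neuronal membrane protein with leucine-rich repeats, lies at 27948078 to 28670286 on the minus strand of chromosome 9. LINGO2 was at 3.76 ± 0.817 CPM (SD, n = 3) in control DMSO, and the SPARK-ON libraries held 1 read, in DMSO replicate 1.

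Of the transporters, SLC7A2 (ENSG00000003989.18, chromosome 8, 17497088 to 17570573, plus strand) carries arginine, lysine and ornithine. It had 128, 181 and 184 reads in control DMSO, 188 and 187 in control lenalidomide, 0 in each SPARK-ON DMSO library and 3, 1 and 1 with lenalidomide. SLC15A1 (ENSG00000088386.17, chromosome 13, 98683801 to 98752654, minus strand) is the proton-coupled peptide transporter PEPT1 of the gut. Its 5 control libraries lay between 4.99 and 6.71 CPM, and the SPARK-ON libraries held 2 reads in all.

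PCK1 (ENSG00000124253.11, chromosome 20, 57561080 to 57568112, plus strand) is the cytosolic phosphoenolpyruvate carboxykinase, the committed enzyme of gluconeogenesis in liver and kidney. At 32.6, 27.8 and 34.9 CPM it was the member with the highest CPM in control DMSO, and it was at 23.1 and 24.4 CPM in control lenalidomide. SPARK-ON cells had 3 reads in DMSO and 3 with lenalidomide, each time all in replicate 1. Among marker lists of tissues known for PCK1, the hepatocyte and kidney lists were not higher in control cells, and the adipocyte list was. Hepatocyte markers summed to at most 0.714 CPM in control libraries and to between 5.88 and 7.81 CPM in SPARK-ON libraries, almost all SERPINA1, while albumin had at most 5 reads in any group. Kidney proximal tubule markers summed to 1.41 to 2.44 CPM in control and 2.35 to 4.60 CPM in SPARK-ON libraries. The adipocyte list was higher in control, at 3.87 to 4.83 CPM against 0.882 to 1.68 CPM, through FABP4, with ADIPOQ and LEP at 0 reads in all groups; the part of such cells in the PCK1 level was not tested. CYB5R2 (ENSG00000166394.15, chromosome 11, 7665100 to 7677222, minus strand), an NADH-cytochrome b5 reductase, was much weaker and the steadiest of the 15, with a coefficient of variation of 9.41% over the 5 control libraries.

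The signalling and scaffold genes were DOK5 (ENSG00000101134.12, chromosome 20, 54475597 to 54651171, plus strand), an adaptor docked to receptor tyrosine kinases, and DLGAP1 (ENSG00000170579.17, chromosome 18, 3496032 to 4455335, minus strand), a scaffold of the postsynaptic density. DOK5 was at 6.05 ± 0.417 CPM (SD, n = 3) in control DMSO, with 0 reads in SPARK-ON DMSO and 1 read with lenalidomide. DLGAP1 had 153, 138 and 130 reads in control DMSO, 3, 0 and 1 in SPARK-ON DMSO, and 14, 1 and 1 in SPARK-ON lenalidomide. Of the 15 genes, 14 were protein-coding; the exception was LINC00639 (ENSG00000259070.8, chromosome 14, 38749339 to 38948273, minus strand), a long intergenic RNA. LINC00639 was at 3.53, 5.95 and 5.35 CPM in control DMSO and at 7.33 and 3.83 CPM in control lenalidomide, so 1 lenalidomide library lay above all DMSO libraries and the other within their range.

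**Figure D1:**
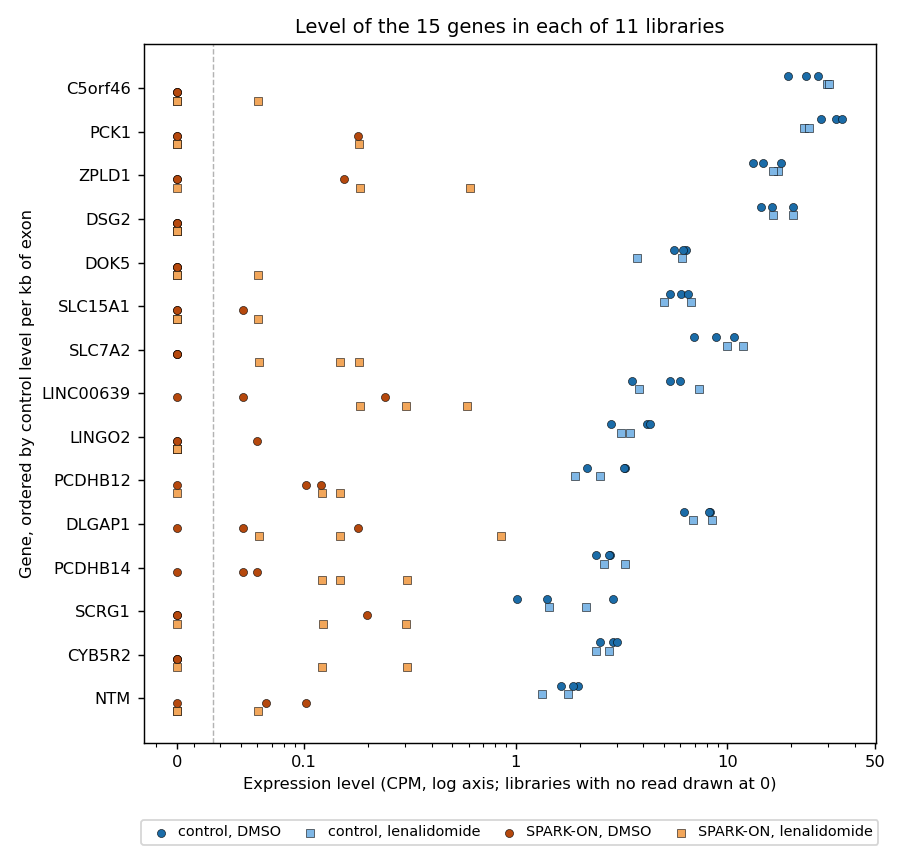
Level of each of the 15 genes in each of the 11 libraries, in CPM on a scale that shows 0, with groups by colour. For every gene the lowest control library lies above the highest SPARK-ON library, and PCK1, C5orf46, DSG2 and ZPLD1 are the most strongly read.

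The lenalidomide libraries did not enter the rule, and the difference between the lines was read in them as well. The lines were the same, and the fit took its spread from all 11 libraries, the DMSO ones included. A gene read only in control cells passes the filter on low counts through control cells alone. The count of members called is therefore a description. All 15 genes were lower in SPARK-ON than in control cells with lenalidomide, by edgeR's quasi-likelihood test with Benjamini-Hochberg adjustment over 16056 genes, with adjusted p between 5.85e-12 for C5orf46 and 0.00246 for SCRG1. Over all genes tested 19.7% were called lower, 3169 genes, and 3165 were called higher. With scaling by library size alone, that background was 2396 lower and 4045 higher, and all 15 genes were still lower. In each of the 15 both control lenalidomide libraries lay above all 3 SPARK-ON lenalidomide libraries, which held for 29.3% of genes tested.

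The size of the difference is bounded by the few reads on the SPARK-ON side. DSG2, with 630 reads against 0, was at least 241-fold higher in control cells under lenalidomide, taking 3 reads over the SPARK-ON group as the floor. LINGO2, with 0 reads as well, was at least 43.5-fold higher. C5orf46 gave a ratio of 1187, with a 95% exact counting interval of 213 to 46934, which covers counting error only. The ratio for PCK1 was 315 (107 to 1531), for SLC15A1 235 (41.7 to 9323) and for DOK5 199 (35.3 to 7920). SLC7A2 was 85.9-fold higher (36.5 to 266) and NTM 61.9-fold (10.6 to 2489), the latter from 1 SPARK-ON read.

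The smallest ratios belonged to genes that had some reads in SPARK-ON cells with lenalidomide or few in control cells. ZPLD1 was 51.3-fold higher in control cells (29.8 to 96.9) and PCDHB12 29.4-fold (9.69 to 146). DLGAP1 was 18.8-fold higher (11.4 to 33.4), LINC00639 18.0-fold (10.04 to 35.4), CYB5R2 14.7-fold (6.86 to 37.7) and PCDHB14 14.5-fold (7.07 to 34.4). SCRG1 had the smallest ratio, 9.99 (4.56 to 25.9).

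Single SPARK-ON libraries set several of these ratios. Lenalidomide replicate 1 held 14 of the 16 DLGAP1 reads and 10 of the 13 ZPLD1 reads, and without it the ratios were 88.0 for DLGAP1, 129.8 for ZPLD1, 51.5 for PCDHB12 and 20.4 for SCRG1. Without it C5orf46, PCK1, SLC15A1, DOK5 and NTM had 0 SPARK-ON reads, so that they were at least 231, 184, 45.7, 38.8 and 12.04-fold higher in control cells. Without replicate 2 the ratios were 11.8 for DLGAP1, 17.3 for PCDHB12, 22.7 for PCDHB14, 30.3 for CYB5R2 and 36.4 for NTM, and 698, 185, 138 and 117 for C5orf46, PCK1, SLC15A1 and DOK5. The bounds fell to 140 for DSG2 and 25.4 for LINGO2 without replicate 1, and to 141 and 25.6 without replicate 2, as fewer libraries carry less depth. All 15 genes remained lower in SPARK-ON cells by edgeR's quasi-likelihood test without each of the 5 lenalidomide libraries. This too is a description, since the choice of genes used the same lines.

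Lenalidomide changed none of the 15 in control cells past the threshold. By edgeR's quasi-likelihood test with Benjamini-Hochberg adjustment, 0 members were called, beside 0.0436% of all genes tested, which is 7 genes. The control DMSO libraries of this comparison also chose the members. Log2 changes, lenalidomide over DMSO, ran from -0.42 to 0.36; 8 were positive and 7 negative, and the median was 0.0047, where the median of all genes was 0. At an unadjusted p under 0.05 there were 2 members, beside 4.82% of genes tested. DESeq2 and limma-voom called 0 members too.

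Those 2 were the most abundant by CPM, and they lay in opposite directions. C5orf46 averaged 23.2 ± 3.8 CPM under DMSO (SD, n = 3), and lenalidomide libraries averaged 29.9 ± 0.616 CPM (SD, n = 2), a log2 difference of 0.36 (SE 0.15, adjusted p = 0.968 by edgeR's quasi-likelihood test). PCK1 averaged 31.8 ± 3.61 CPM under DMSO (SD, n = 3), and its lenalidomide libraries averaged 23.8 ± 0.91 CPM (SD, n = 2), a log2 difference of -0.42 (SE 0.175, adjusted p = 0.968 by edgeR's quasi-likelihood test). They were also the only members whose DMSO and lenalidomide libraries did not overlap, which 14.5% of all genes did not. The other 13 overlapped. ZPLD1 averaged 15.3 ± 2.35 CPM over the 3 DMSO libraries and 16.9 ± 0.659 CPM over both lenalidomide libraries (SD), and DSG2 averaged 17.0 ± 3.03 and 18.4 ± 2.81 CPM.

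The remaining log2 differences with their standard errors were 0.31 (SE 0.216) for SLC7A2 and 0.02 (SE 0.319) for DLGAP1. DOK5 had -0.29 (SE 0.277), and its lenalidomide libraries differed from each other by more than that, at 3.73 and 6.12 CPM. The widest errors were those of SCRG1, SE 0.594, and NTM, SE 0.47. A change of 2-fold in the weakest members lay within about 2 standard errors and was not detectable at this depth. The number of genes called over the whole table in this comparison rested on single libraries: it was 0 without either control lenalidomide replicate, 21 without control DMSO replicate 1, and 2 without DMSO replicate 2 or 3, and 0 members were called in each.

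**Figure D2:**
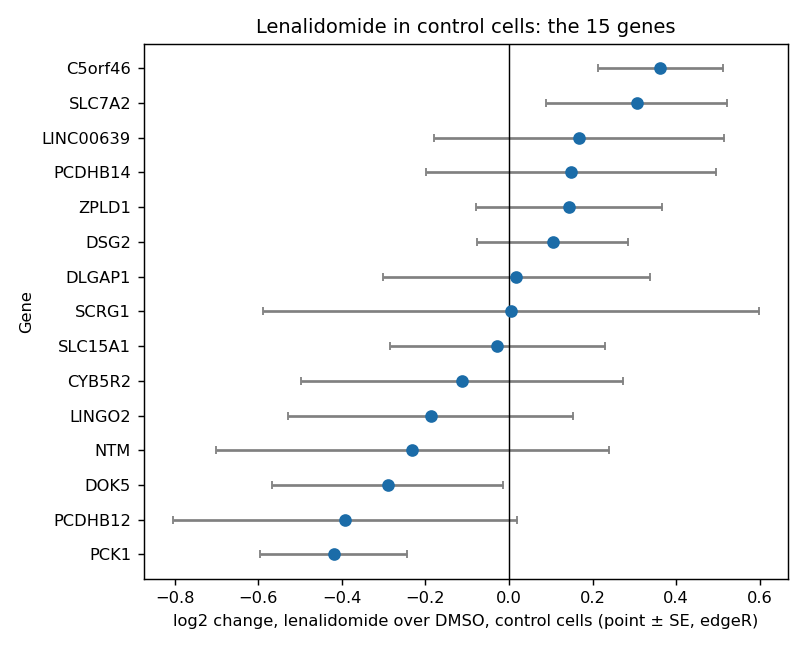
Log2 difference of each of the 15 genes between lenalidomide and DMSO in control cells, with a line at 0. Bars are 1 standard error, derived from edgeR's log2 difference and F statistic. C5orf46 lies highest at 0.36 and PCK1 lowest at -0.42, and no gene passed the adjusted threshold.

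In SPARK-ON cells the 15 genes together had 29 reads in the 3 DMSO libraries and 78 in the 3 lenalidomide libraries. Of the 78 reads, 50 were in lenalidomide replicate 1, 20 in replicate 2 and 8 in replicate 3, and without replicate 1 the count was 28. Relative to depth, the members took 0.866, 0.273 and 0.572 CPM of the total counts in DMSO and 3.13, 1.27 and 1.21 with lenalidomide, so all lenalidomide libraries lay above all DMSO libraries. In control cells the same sum was 125, 130 and 139 CPM in DMSO and 137 and 129 with lenalidomide.

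The rule limited the reads of SPARK-ON DMSO libraries and not those of lenalidomide libraries, so this comparison is not independent of the choice. The rule was therefore also read on the lenalidomide libraries, a check chosen after the data had been seen. Its control limit of 100 reads was lowered in proportion to 2 control libraries in place of 3, and the SPARK-ON limit stayed at 5. PCDHB12, with 77 control lenalidomide reads, and ENSG00000287307, with 78, passed only under the lowered limit. It chose 11 genes, of which 8 were shared, 53.3% of the 15 and 72.7% of the 11. For those 11 genes the order was the opposite: 0.547 CPM in SPARK-ON lenalidomide and 0.699 in SPARK-ON DMSO. The summed reads are thus given as counts only, and no response to lenalidomide is read from them.

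Gene by gene, 6 members had more than 5 reads in SPARK-ON lenalidomide: DLGAP1 with 16, ZPLD1 with 13, LINC00639 with 12, PCDHB14 with 8, and SCRG1 and CYB5R2 with 7 each. Without replicate 1 there were 2 such genes. By edgeR's quasi-likelihood test with Benjamini-Hochberg adjustment 0 members were called for lenalidomide in SPARK-ON cells, beside 0.0685% of all genes tested, and the smallest adjusted p was 0.593. At an unadjusted p under 0.05 there were 5 members, beside 5.36% of genes tested. Of the 45 pairs of a gene and a library, 30 were at 0 in DMSO and 20 with lenalidomide. Over the whole table the 11 genes called became 0 without SPARK-ON lenalidomide replicate 2 or any 1 SPARK-ON DMSO replicate, 1 without lenalidomide replicate 1 and 5 without replicate 3.

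**Figure D3:**
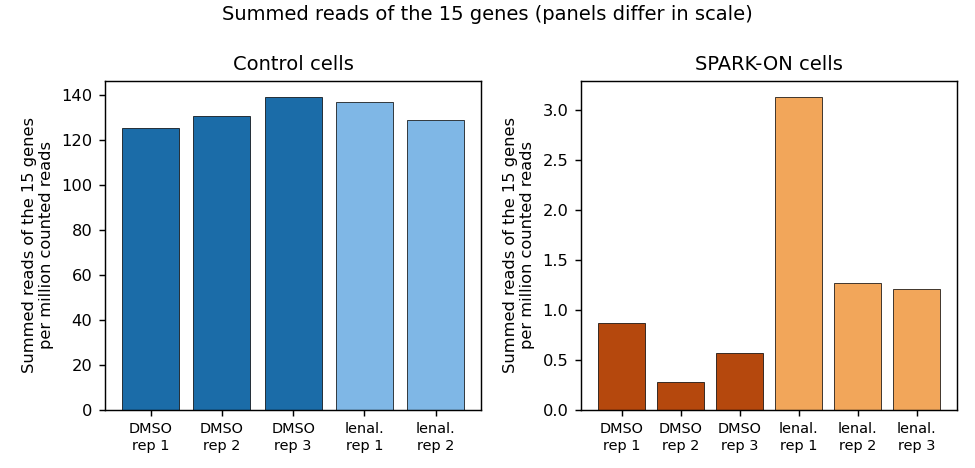
Reads of the 15 genes summed in each library and divided by the library's total, in CPM of total counts, for the 4 groups. Control libraries lie between 125 and 139, and SPARK-ON libraries between 0.273 and 3.13, with lenalidomide replicate 1 the highest.

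The 15 genes were spread over 10 chromosomes, with 3 on chromosome 5 and 2 each on chromosomes 11, 18 and 20. Chromosome 5 held 20% of the members and 4.78% of the genes that could have been members, and chromosome 18 held 13.3% and 1.49%; no test of these shares was made. Only PCDHB12 and PCDHB14 were close neighbours, 14235 bases apart. C5orf46 lay 6657794 bases beyond PCDHB14, DOK5 lay 3085483 bases from PCK1, and DLGAP1 and DSG2 were on opposite arms of chromosome 18, 28002011 bases apart. The median gene length was 68854 bases, from 3875 in PCDHB12 to 966345 in NTM, beside 33441 for the genes that could have been members, and the median exon lengths were 5130 and 5188 bases. Protein-coding genes made up 93.3% of the members and 92.1% of the genes that could have been members.

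Annotated genes overlapping a member's span were checked, because the strand setting of the counting was not given and reads of overlapping genes on opposite strands cannot then be told apart. C5orf46 shared its span, though no exon, with SCGB3A2, a secretoglobin of airway cells, and with 2 unnamed RNAs. SCGB3A2 had 24 reads in control DMSO, 11 in control lenalidomide and 0 in SPARK-ON cells. The antisense RNA AC011352.3 there had 89, 44 and 0 reads in the same order. The 3 overlapping genes thus had reads in control cells and 0 in SPARK-ON cells, where C5orf46 had 1.

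DLGAP1 overlapped AP002478.1 in an exon, an antisense RNA with the opposite pattern. AP002478.1 had 15 reads in control DMSO and 228 in SPARK-ON DMSO, and 19 and 209 with lenalidomide. DLGAP1-AS1 and DLGAP1-AS2, which overlap no DLGAP1 exon, were read in both lines, with 218 and 456 reads in control and 190 and 507 in SPARK-ON lenalidomide libraries. Reads from within the span of DLGAP1 were therefore present in SPARK-ON cells. No other member shared an exon with a gene of more than 10 reads.

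Within 1 Mb of the members' ends, 162 other genes were tested, and their changes under lenalidomide, SPARK-ON over control, were mixed. By edgeR's quasi-likelihood test 41 were lower (25.3%) and 28 higher (17.3%), beside 19.7% in each direction over all genes tested. The median log2 difference of the 162 was -0.10, beside 0.015 for all genes tested. The 41 lower genes included 6 further genes of the protocadherin beta array, and PCDHGA9 and PCDHGC3 of the gamma cluster. Around PCK1 the TGF-beta inhibitor PMEPA1 was lower in SPARK-ON cells by edgeR's quasi-likelihood test (log2 -2.44, SE 0.0766, adjusted p = 5.96e-14), and 5 of the 12 genes tested there were higher and 3 lower. Of the 6 genes tested around DSG2, 3 were lower and 0 higher, and of the 10 around SLC15A1, 4 were lower and 0 higher. DLGAP1 had 19 tested neighbours, of which 8 were lower and 2 higher. These counts per member are small and are read against the same 19.7% in each direction. By member, the median log2 difference of neighbours that are no members ran from -1.11 around NTM, with 2 genes tested, to 0.50 around PCK1. It was -0.65 around DSG2 and -0.43 around DLGAP1, both on chromosome 18. No test of these medians was made.

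Within these windows some neighbours ran against the member and others went with it. ENSG00000260412 near LINGO2, called lower in SPARK-ON cells, had 15 reads in control and 0 in SPARK-ON lenalidomide libraries. HAND2, a transcription factor of the sympathetic lineage whose gene neighbours SCRG1, had 0 reads in control and 21 in SPARK-ON lenalidomide libraries. It passed edgeR's quasi-likelihood test (adjusted p = 0.00659), and had 6 and 57 reads in DMSO. HAND2 and ENSG00000260412 passed the filter on low counts through the line that had reads, so both calls are descriptions. The summed level of the 6 adrenergic markers did not follow HAND2. Only 2 of them, HAND2 and GATA3, passed the filter on low counts, and 2 had 0 reads in all libraries. GATA3 was lower in SPARK-ON lenalidomide libraries without passing that test (log2 -0.49). The list summed to 7.78 to 8.73 CPM in control and to at most 7.33 CPM in SPARK-ON lenalidomide libraries, and the lines overlapped in DMSO. MOB3B, 1141 kb from the start of LINGO2, had 0 reads in control and 67 in SPARK-ON lenalidomide libraries. SYT9-AS1, 165 kb from the start of CYB5R2, had 0 and 65. PCDH1, a non-clustered protocadherin 644 kb from the start of PCDHB12, was higher in SPARK-ON cells at 5.54 CPM against 0.572 CPM.

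**Figure D4:**
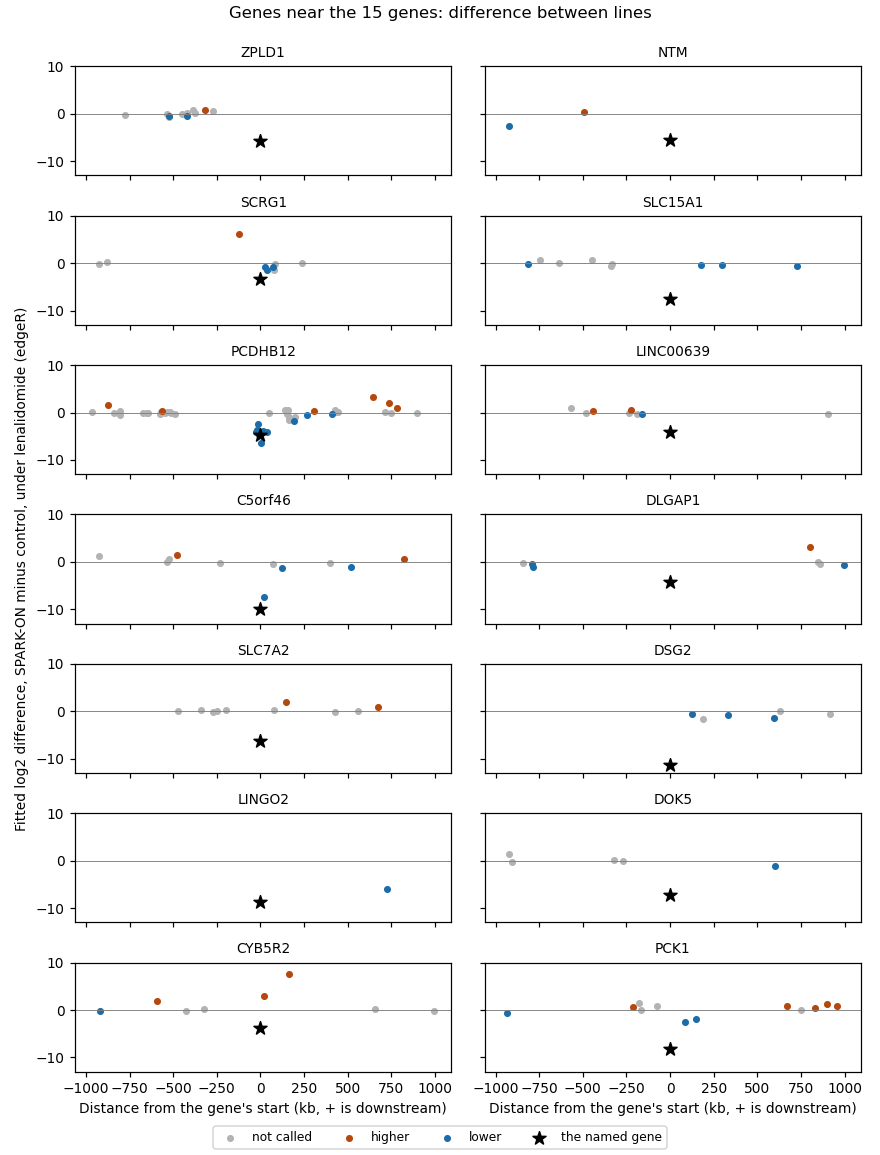
Log2 difference between SPARK-ON and control cells under lenalidomide for each gene tested within 1 Mb of a member's start, by member. Genes called higher, lower or not called are in different colours, and PCDHB14 has no panel of its own. Called neighbours lie on both sides of 0 for most members drawn. The 41 lower and 28 higher among 162 were counted within 1 Mb of the members' ends, so some of them are not drawn.

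In the protocadherin beta array, other genes beside both members were low in SPARK-ON cells as well. Of the 16 PCDHB genes counted, 8 passed the filter on low counts, and all 8, both members included, were lower in SPARK-ON than in control cells under lenalidomide by edgeR's quasi-likelihood test, beside 19.7% of all genes, with a median log2 difference of -4.13. A gene read only in control cells passes that filter through control cells alone, and reads can be split between near-identical members, so the count is a description. PCDHB15, which is no member, was at 4.75 ± 1.18 CPM (SD, n = 2) in control and 0.252 ± 0.0908 CPM (SD, n = 3) in SPARK-ON lenalidomide libraries. The 8 PCDHB genes not tested had 54 reads in control and 10 in SPARK-ON lenalidomide libraries. Summed over the array, control libraries had 14.4 to 16.8 CPM and SPARK-ON libraries 0.528 to 1.62 CPM.

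Over the alpha, beta and gamma clusters together, 17 of 54 genes were tested, 10 lower and 0 higher, with a median log2 difference of -1.87, beside 19.7% called lower over all genes. Of the 10, 8 were the PCDHB genes just described, with both members among them and the same limits; the other two were PCDHGA9 (log2 -1.87) and PCDHGC3 (log2 -0.59). PCDHGC3, the most abundant gamma gene, was read in both lines, at 111 ± 13.5 CPM (SD, n = 2) in control and 73.9 ± 2.67 CPM (SD, n = 3) in SPARK-ON lenalidomide libraries. Lenalidomide in control cells called 0 of the 17.

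The array's promoters are known to share a conserved element near the start of transcription. Both beta members hold the letters TGGTGGCGCT just upstream of the RefSeq start, which for PCDHB14 lies inside the GENCODE gene. Stretches of 60 bases around these letters are given 5′ to 3′ from RefSeq promoter windows (GRCh38.p14, plus strand), with the letters in capitals. They lie at chr5:141208628-141208687 and chr5:141223248-141223307.
PCDHB12: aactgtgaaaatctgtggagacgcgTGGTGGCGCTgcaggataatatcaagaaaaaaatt
PCDHB14: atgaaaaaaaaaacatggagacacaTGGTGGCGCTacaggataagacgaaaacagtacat
They are the longest run of letters common to both windows. Searched on both strands, they occurred in 34 of 27305 windows of 300 bases (0.125%), in 8 of 14 PCDHB windows (57.1%) and in 8 of 47 windows of all clustered protocadherins. The PCDHB12 and PCDHB14 windows, from which the letters were taken, are among the 8, so these shares are no test of a shared element. The match is a description of the sequence, not a measured binding site.

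RefSeq windows of 300 bases, 250 before and 50 after a gene's start, were found for 12 of the 15 genes. The median ratio of observed to expected CpG in them was 0.477, beside 0.854 for the genes that could have been members and 0.580 over all windows. A ratio of at least 0.6 was reached by 5 of 12 members (41.7%), by 86.1% of windows of the genes that could have been members and by 49.0% of all windows. The ratio ran from 0 in ZPLD1, 0.0887 in LINGO2, 0.186 in C5orf46 and 0.224 in SCRG1 to 0.826 in DSG2, 0.860 in PCDHB14, 0.868 in PCDHB12 and 1.14 in CYB5R2. No test of the difference was made, and for some genes, ZPLD1 and PCDHB14 among them, the RefSeq start lies away from the start of the GENCODE gene.

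The 250 bases before the RefSeq start are printed with CG in capitals for 3 of the most strongly read members, to show windows poor and rich in CpG: C5orf46 (chr5:147906539-147906788, minus strand), ZPLD1 (chr3:102434765-102435014, plus strand) and DSG2 (chr18:31497927-31498176, plus strand). C5orf46 and ZPLD1 have 0 CG in this stretch and DSG2 has 26.
C5orf46: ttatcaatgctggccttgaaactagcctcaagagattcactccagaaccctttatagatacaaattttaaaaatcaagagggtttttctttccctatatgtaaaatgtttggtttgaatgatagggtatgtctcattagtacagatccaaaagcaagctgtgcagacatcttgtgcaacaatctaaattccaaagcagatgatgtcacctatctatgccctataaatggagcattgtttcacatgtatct
ZPLD1: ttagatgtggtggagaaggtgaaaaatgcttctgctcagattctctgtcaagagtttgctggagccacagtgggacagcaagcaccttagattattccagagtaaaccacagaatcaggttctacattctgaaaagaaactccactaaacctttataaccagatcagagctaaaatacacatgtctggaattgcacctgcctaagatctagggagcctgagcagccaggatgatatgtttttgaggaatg
DSG2: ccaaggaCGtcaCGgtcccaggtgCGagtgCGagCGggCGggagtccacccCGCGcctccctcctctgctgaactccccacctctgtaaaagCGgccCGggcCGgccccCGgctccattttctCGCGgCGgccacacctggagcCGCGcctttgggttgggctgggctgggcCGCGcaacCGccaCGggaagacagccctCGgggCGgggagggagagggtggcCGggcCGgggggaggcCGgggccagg
The E-box letters CACGTG, the preferred sequence of MYC family proteins, were in 0 of the 12 windows, beside 10.4% of windows of the genes that could have been members and 7.43% of all windows. TATAAA, searched on both strands, was in 3 of 12 (25%), ZPLD1, PCDHB12 and C5orf46, beside 4.99% and 11.95%. A missing match says only that these letters are not in this window.

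**Figure D5:**
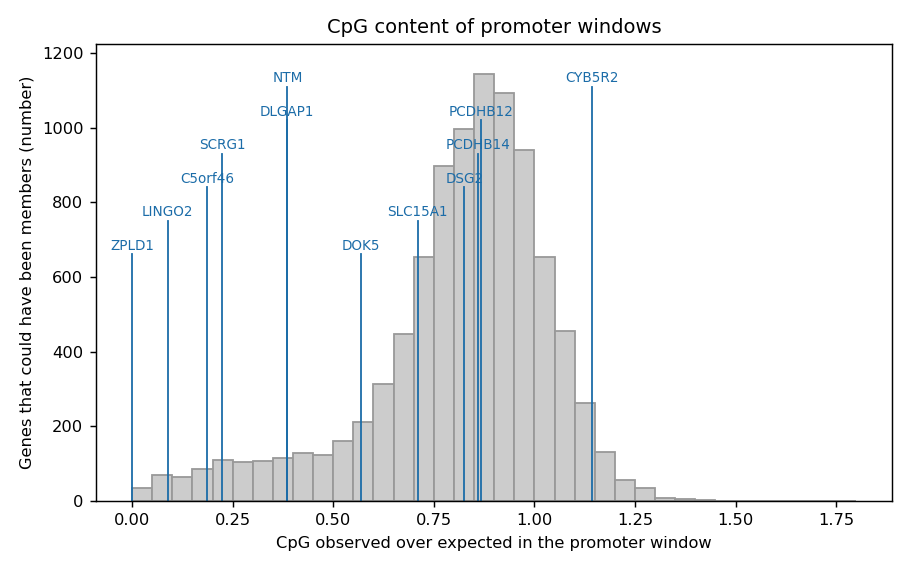
Ratio of observed to expected CpG in the 300-base promoter windows of 12 members, over the distribution in the windows of genes that could have been members. Most of the latter lie above 0.6, where 5 of the 12 members lie.

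Relatives of the 15 genes, from lists drawn up after the members were known apart from the gluconeogenesis and zona pellucida lists, are given for the same comparison under lenalidomide. PCK2, the mitochondrial enzyme that makes the same product as PCK1, was read in both lines, at 24.5 ± 2.86 CPM (SD, n = 2) in control and 11.03 ± 1.35 CPM (SD, n = 3) in SPARK-ON cells, and was lower by edgeR's quasi-likelihood test (log2 -1.17, adjusted p = 3.31e-06). Of 18 gluconeogenesis genes tested, 9 were lower, PCK1 itself among them, and 2 higher, with a median log2 difference of -0.27. Over all genes tested 19.7% were called in each direction, and the median was 0.015. The lower ones included the shared glycolytic enzymes PGK1 (log2 -0.82) and GPI (log2 -0.78), and the higher ones were PPARGC1A (log2 2.33), a coactivator of fasting metabolism, and G6PC3 (log2 0.35). Without control lenalidomide replicate 1 the counts were 6 lower and 1 higher.

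Among the transporters' relatives, SLC7A1, the general arginine carrier, was at 227 ± 10.4 CPM (SD, n = 2) in control and 213 ± 1.8 CPM (SD, n = 3) in SPARK-ON cells and did not pass the test. SLC15A3, a lysosomal peptide transporter, was higher in SPARK-ON cells (log2 2.76). Of the 6 zona pellucida domain genes tested, ZPLD1 was lower and 2 TGF-beta co-receptors were higher, ENG (log2 3.49) and TGFBR3 (log2 2.27).

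DSG2 was the only desmosomal cadherin that passed the filter, and DSC2, its usual partner, had 11 reads in control and 0 in SPARK-ON lenalidomide libraries. Desmosomal plaque genes moved both ways, JUP (log2 2.04) and PKP3 (log2 1.11) higher and PKP4 (log2 -0.51) lower in SPARK-ON cells. Epithelial markers went opposite to DSG2: they summed to 13.3 to 19.3 CPM in control and 45.1 to 59.6 CPM in SPARK-ON libraries, through KRT8 and KRT18, with 0 reads of CDH1 and EPCAM in control cells. NEGR1, an IgLON relative of NTM (log2 -0.98), and DOK6, the closest relative of DOK5 (log2 -1.36), were lower in SPARK-ON cells but present in both lines. DOK1 (log2 0.70), DOK4 (log2 0.70) and DOK7 (log2 2.07) were higher in SPARK-ON cells, and DOK3 did not pass the test. CYB5R1 was higher (log2 1.37).

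The limits of the rule fell among genes with similar values. Just inside the control limit were NTM with 102 reads in control DMSO, SCRG1 with 103 and PCDHB14 with 149, and just outside were XKR4 with 99, VSNL1 with 98 and ENSG00000289609 with 95. At the SPARK-ON limit LINC00639 with 5 reads, DLGAP1 with 4 and PCDHB12 with 4 were inside, and AZGP1, ENSG00000272482 and SERPINA3, with 6 each, were outside. Over the 6 SPARK-ON libraries, 14 of the 15 had at least 1 read, so the genes are near absent from SPARK-ON cells and not strictly restricted to control cells.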

How the data were processed

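PolyA RNA of SH-EP cells was sequenced. The deposited values are raw counts per gene, whole numbers, made by the authors with FastQC, fastp, HTSeq and edgeR on hg38, per the submitters' processing notes. Neither aligner nor strandedness nor gene annotation version is named: each was not given in the sources used. Of the 14 columns, 11 matched labelled samples of 4 groups; the other 3 matched no label and were not used, so the planned comparison with baseline cells was not made. Symbols were found for 61415 of 61533 IDs and positions for 58356 in GENCODE 29, 35913 of them with the same ID version.

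The fit used edgeR 4.0.16 in R 4.3.3: filterByExpr, TMM, a one-way layout of the 4 groups, glmQLFit and two-sided glmQLFTest with Benjamini-Hochberg adjustment over 16056 genes at 0.05, with 7 residual degrees of freedom and a biological coefficient of variation of 9.4%. CPM, ratios and sums were computed here from the deposited counts. Standard errors are approximate: each is the absolute log2 difference divided by the square root of the test's F statistic, as the test itself gives none. The fit was tested on simulated data. Whether replicates came from separate cultures is not labelled; p-values then reflect the spread between these samples alone, which may be technical. Same-numbered samples were not paired.

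The members and gene lists were chosen with earlier results of these data known. All 15 members are named, with neighbours, relatives and the genes next to each limit. Relatives, neighbours outside these lists and the rule on lenalidomide libraries were chosen after values had been seen. Alternatives were DESeq2 1.42.0, limma-voom with limma 3.58.1, other scalings, no filter, only the groups compared, a replicate block, other limits of the rule and leaving out each replicate.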

Additional observations from a re-analysis of the deposited data

How the results depend on the processing

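Under lenalidomide all 15 genes stayed lower in SPARK-ON cells in each of 180 alternative values. The genes were chosen as near absent from the same SPARK-ON line, so this is a description and no support for the difference. For lenalidomide in either line 0 members were called in the alternatives that tested them. The number of genes called for lenalidomide in control cells was 7 and became 27 with no filter, 24 with DESeq2, 0 with only the groups compared, and 0 to 21 with 1 replicate left out. In SPARK-ON cells it was 11 and became 35 with no filter, 45 with DESeq2, 381 with only the groups compared, where the filter removed the members, and 0 to 5 with 1 replicate left out. With a replicate block these counts were 1 and 2. Same-numbered samples deviated from their group means with correlations of -0.18 to 0.015, so the numbers were not taken as pairs; with the block DLGAP1 was at -0.15 and SLC15A1 at 0.0438 for lenalidomide in control cells.

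The rule chose 30 genes at a control limit of 50 reads, 5 at a SPARK-ON limit of 0 reads and 8 at a limit of 2 reads, beside 15. Of 180 alternative values for lenalidomide in control cells, 17 changed sign, all uncalled. SCRG1 was at -0.00082 with library size scaling and -0.00057 with only the groups compared. With 1 replicate left out, DLGAP1 ranged from -0.14 to 0.16, DOK5 from -0.71 to 0.0151, DSG2 from -0.0578 to 0.26, LINC00639 from -0.37 to 0.56, PCDHB14 from -0.0243 to 0.302, SCRG1 from -0.31 to 0.55 and SLC15A1 from -0.27 to 0.16. The cause was not tested. Standard errors of these log2 differences, up to 0.594 for SCRG1, set what could be detected.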
